A study of Mus musculus with 10 samples.

Results

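The genes described here encode the alpha chains of mouse collagens in lung tissue. They were taken by name alone: every row of a table of transcript abundances whose gene symbol was Col, a number, the letter a and a number. This gave 44 collagen genes in 54 transcript rows, of 24394 gene symbols and 66548 rows in all. The values are FPKM, counts of sequenced fragments scaled for transcript length and library depth, and the rows of a gene were summed. The RNA came from lungs of female BALB/c mice aged 8 weeks. The control group, Saline (n = 3), had received injections of saline alone. OVA mice (n = 3) had been sensitized 2 times with ovalbumin, an egg protein, in an alum emulsion injected into the abdomen, and then given ovalbumin through the nose for 4 days and the vehicle by mouth, which gives an acute allergic airway inflammation used as a model of asthma. Herb mice (n = 4) had the same ovalbumin protocol and 200 mg/kg of an ethanol extract of Descurainia sophia seeds (DSE) by mouth for 7 days in place of the vehicle. A few days of challenge make this a model of acute inflammation, and whole lung tissue pools airways, vessels, alveoli and pleura in 1 library. OVA vs. Saline shows the changes of the model, Herb vs. OVA those under the extract, and Herb vs. Saline what still differed from the controls. The first and the second comparison share the OVA libraries.

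Collagens are triple helices of 3 alpha chains, and the gene family is divided by what the helices build. Fibrillar collagens, types I, III and V above all, form the banded fibrils that give lung interstitium, airway walls and vessel adventitia their tensile strength. Type IV collagens form the sheet-like network of basement membranes under epithelium and endothelium, including the very thin shared basement membrane across which the alveoli exchange gas. Type VI collagens form beaded microfilaments around cells, fibril-associated collagens such as types XII and XIV sit on the surface of fibrils, and the short chains of types VIII and X build hexagonal networks. Fibroblasts and smooth muscle cells make most fibrillar and type VI collagen, whereas endothelial and alveolar epithelial cells make much of the type IV collagen. Deposited collagen lasts far longer than its messenger RNA, so that RNA abundance describes synthesis at the time of sampling and not the amount of protein in the tissue.

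Facts of the whole table bear on every value below. The depth, estimated from the lowest values, was 14900000 to 29600000 fragments per library, and a count of 3 fragments corresponds to at most 0.0767 FPKM for any collagen row at the lowest depth. The summed FPKM of protein-coding RefSeq rows was 133354 to 147533 in Saline, 39136 to 52995 in OVA and 74117 to 98580 in Herb. The median log2 fold change of the 11205 gene sums with a mean of at least 1 FPKM was therefore far from 0 in the FPKM as deposited: -0.75 in OVA vs. Saline, 0.48 in Herb vs. OVA and -0.27 in Herb vs. Saline. Setting the 75th percentile of all libraries equal, called rescaling below, brought these medians to 0.07, 0.01 and 0.09. Each call below is an adjusted p under 0.05 from limma on log2(FPKM + 1) over all gene sums tested, given as deposited and, where it matters, after that rescaling. Since the housekeeping gene Gapdh has the value 0 in 9 of the 10 libraries, a 0 in this table need not mean absence, and the wording used here is that a gene is listed at 0. Markers of lung epithelium were present in every library: the summed FPKM of 5 alveolar type 2 genes was 3051 to 4018 in Saline, 356 to 666 in OVA and 870 to 1724 in Herb.

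Of the 44 collagen genes, 20 had a mean of at least 1 FPKM and entered the tests. Of the others, 6 reached 1 FPKM in some library, 18 did not reach it in any, and among the latter Col9a1, Col20a1 and Col23a1 are listed at 0 in all libraries. The tested genes comprised 5 of 11 fibrillar, 6 of 9 basement membrane, 3 of 6 beaded filament, 3 of 3 short-chain network, 2 of 9 fibril-associated and 1 of 6 transmembrane and other chains. Type I, III, IV and VI chains, the usual ones of lung, were the most abundant. Of chains known from cartilage, Col2a1 did not exceed 0.0226 FPKM, Col11a1 did not exceed 0.0181 FPKM and Col9a1 was listed at 0, whereas Col9a3 reached 0.495 FPKM, Col11a2 1.14, Col10a1 1.64 and Col27a1 3.86. A limit of the symbols applies to these counts. In the table, 31605 further rows are assembled models that carry no symbol, and their numbering places 27 of them in the loci of 9 collagen genes. With those models added, Col4a5 would have 5.26 to 16.2 FPKM in place of 0.0003 to 0.133, Col5a1 would have 2.83 to 6.01 in place of 0 to 5.98, and Col16a1 would have 2.28 to 7.77 in place of 0 to 1.1. The models carry no coordinates, so the assignment rests on numbering and row order, and it was made after the values had been seen.

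In OVA vs. Saline collagens were called in both directions. The type IV chains Col4a1 and Col4a3, the fibril-associated Col12a1 and the network chain Col8a1 fell, the low-abundance chains Col27a1 and Col7a1 rose, and the abundant fibrillar and type VI chains Col1a1, Col3a1, Col6a1 and Col6a2 were not called in either direction as deposited. By count, 2 of the 20 collagens were called higher, beside 3.28% of all gene sums tested, and 5 were called lower, beside 57.9% of all. The fifth gene called lower was Col1a2, whose OVA values are treated separately below. The median log2 fold change of the 20 collagens was -0.08 against -0.75 over all gene sums, and 14 of the 20 lay above that median. After rescaling to the 75th percentile, 8 were called higher (24.1% of all gene sums) and 4 lower (17.2%), with a median of 0.71 against 0.07. The 6 genes added as higher were Col1a1, Col3a1, Col6a1, Col6a2, Col8a2 and Col13a1. By class, the median was highest in the fibrillar (0.76 as deposited, 1.48 rescaled) and beaded filament chains (0.73 and 1.80), apart from the single transmembrane chain tested, and lowest in the fibril-associated chains (-1.32 and -0.59) on both scales. Fewer cells of a type and less RNA per cell cannot be told apart in whole lung, for these and all later values.

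**Figure D1:**
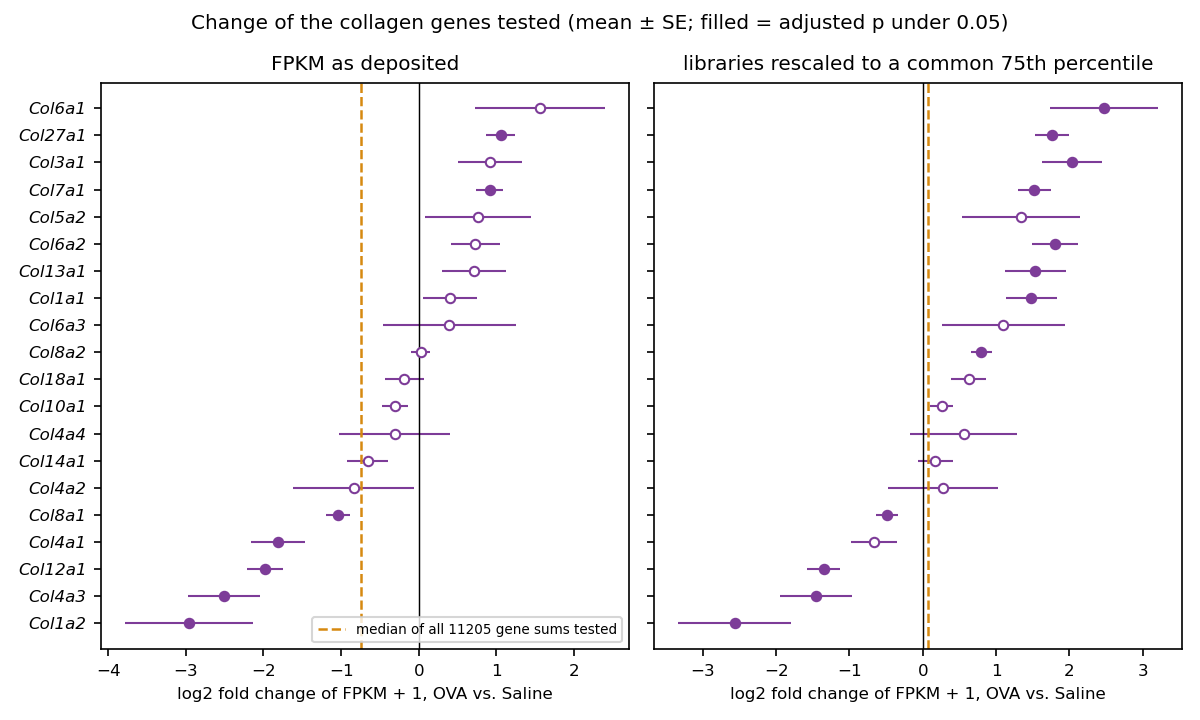
Log2 fold change in OVA vs. Saline of each collagen gene tested, from limma on log2(FPKM + 1), as deposited (left) and rescaled to equal 75th percentiles (right). Points are estimates, bars are 1 SE, filled points passed an adjusted p under 0.05, and the dashed line is the median of all gene sums (-0.75 and 0.07): Col3a1, Col1a1, Col6a1 and Col6a2 lie to its right, and Col12a1, Col4a3 and Col1a2 to its left, in both panels.

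In Herb vs. OVA, 4 of the 20 collagens were called higher (44.0% of all gene sums) and 0 lower (0.446%), with 7 at an unadjusted p under 0.05 in either direction in limma. The 4 were Col4a1, Col8a1, Col14a1 and Col1a2, the last from a row listed at 0 in every OVA library. The median of the collagens, 0.43, was near that of all gene sums, 0.48. After rescaling, 1 was called higher (0.348% of all) and 0 lower (0.455%), with 5 at an unadjusted p under 0.05. The 1 call was that Col1a2 row. With the symbol-less models of the loci added, 0 of 23 collagens were called on the rescaled values, beside 81 of all 11780 sums. In that setting 4 collagens had an unadjusted p under 0.05 in limma. In Herb vs. Saline, 4 collagens were called higher, Col3a1, Col6a2, Col27a1 and Col7a1 (3.32% of all), and 2 lower, Col4a3 and Col12a1 (22.7%). After rescaling, 5 were called higher, Col1a1, Col3a1, Col6a1, Col6a2 and Col27a1 (10.6%), and 1 lower, Col12a1 (5.11%). Of the 20 collagens, 16 lay above the median of all gene sums in Herb vs. Saline on either scale.

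Among the fibrillar chains, Col3a1 (chromosome 1, 45311538 to 45349706 in GRCm38.p6), the single chain of type III collagen, was the most abundant. Its FPKM was 42.6, 12.7 and 15.2 in Saline, 37.3, 43.9 and 36.7 in OVA and 64.1, 56.3, 55.0 and 100.5 in Herb. All Herb libraries lay above all others, whereas Saline replicate 1 lay within the OVA range and the other two Saline libraries lay far below it. The Herb mean was 2.94 times the Saline mean, or 1.67 on the log2 scale (SE 0.39, adjusted p = 0.0174 in limma), and the gene passed the test after rescaling too, with 2.11 (adjusted p = 0.0147). In OVA vs. Saline the log2 fold change was 0.91 (SE 0.41, adjusted p = 0.0816) as deposited and 2.03 (adjusted p = 0.00503) once rescaled. Without Saline replicate 1 the gene was called as deposited as well, with 1.43 (adjusted p = 0.00317), and without Saline replicate 2 or 3 the call in Herb vs. Saline ended, with 1.35 and 1.47 (adjusted p = 0.0688 and 0.0623).

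Col1a1 (chromosome 11, 94936224 to 94953042), which encodes the major chain of type I collagen, had 19.6, 7.74 and 9.23 FPKM in Saline, 14.1, 15.8 and 15.9 in OVA and 18.8, 15.4, 16.3 and 31.8 in Herb. The groups overlapped through Saline replicate 1, the highest library outside Herb. As deposited the gene was not called in any comparison. After rescaling it was called higher in OVA vs. Saline (log2 fold change 1.48, SE 0.35, adjusted p = 0.00997) and in Herb vs. Saline (1.18, SE 0.33, adjusted p = 0.0428). Without Saline replicate 1 the fold change of OVA vs. Saline as deposited was 0.78 (adjusted p = 0.0493). The ratio of Col1a1 to Col3a1 within a library, which a single factor per library does not change, was 0.46, 0.609 and 0.608 in Saline, 0.379, 0.36 and 0.434 in OVA and 0.293, 0.273, 0.295 and 0.317 in Herb. The 3 groups did not overlap in this ratio, with Saline highest and Herb lowest, and it is given without a test.

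**Figure D2:**
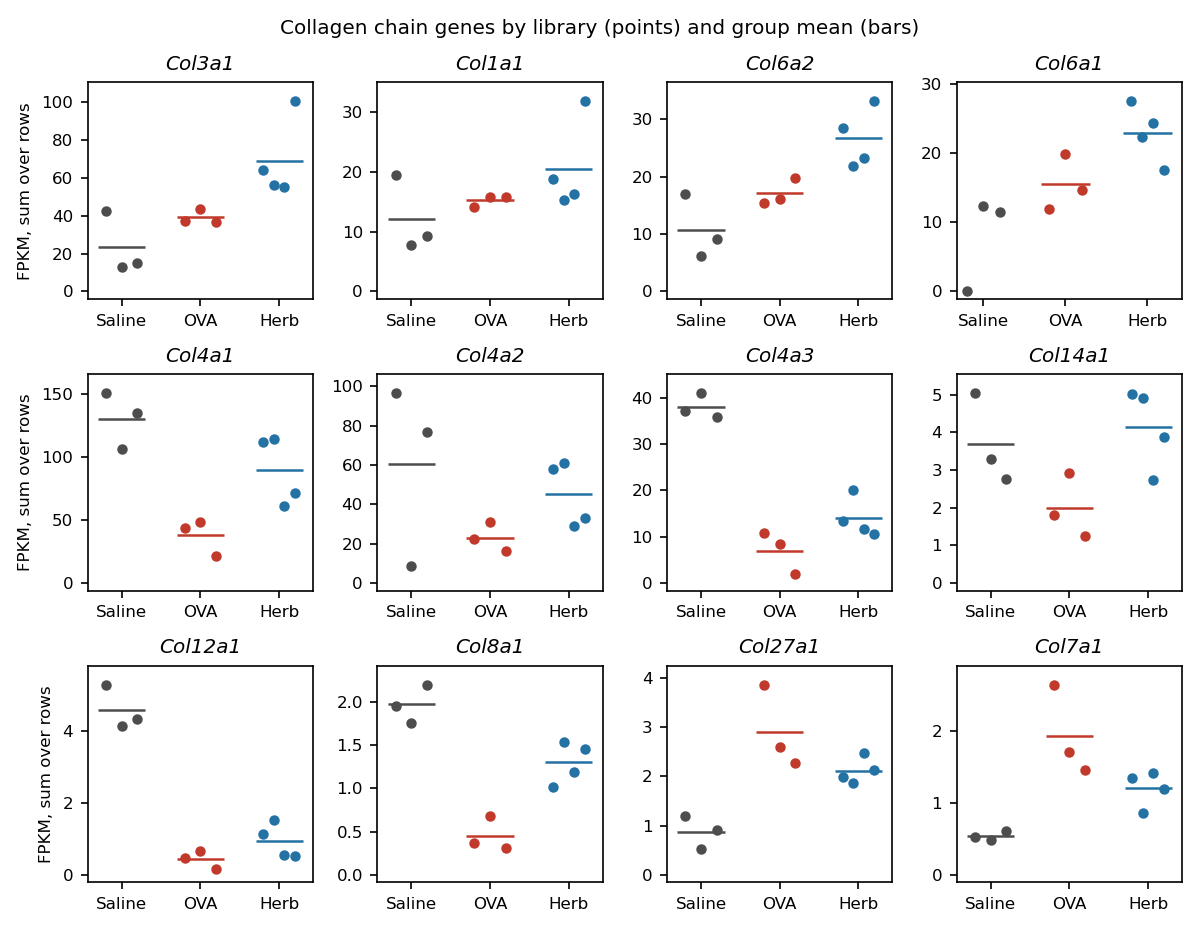
FPKM (vertical axes, from 0) of 12 collagen genes in each library (points) with the group mean (bars, left out where a library is listed at 0). The upper row holds fibrillar and beaded filament chains, of which Herb has the highest mean, the middle row holds type IV chains and Col14a1, of which OVA has the lowest mean, and the lower row shows Col12a1 and Col8a1 low and Col27a1 and Col7a1 high in OVA.

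Col27a1, a fibrillar chain known from cartilage, and Col7a1, the chain of the anchoring fibrils that tie basement membranes to the matrix beneath, were low but separated cleanly. Col27a1 had 1.2, 0.521 and 0.909 FPKM in Saline, 3.86, 2.61 and 2.26 in OVA and 1.98, 1.86, 2.48 and 2.13 in Herb. Col7a1 had 0.528, 0.489 and 0.605 FPKM in Saline, 2.65, 1.71 and 1.46 in OVA and 1.35, 0.866, 1.42 and 1.2 in Herb. Every OVA and every Herb library was above every Saline library for both genes. The OVA mean was 3.31 times the Saline mean for Col27a1 (log2 fold change 1.05, SE 0.19, adjusted p = 0.00107) and 3.59 times for Col7a1 (0.91, SE 0.18, adjusted p = 0.00168), and both stayed called under every rescaling tried. In Herb vs. Saline the log2 fold changes were 0.74 (adjusted p = 0.0185) and 0.51 (adjusted p = 0.0475). The second of these lost its call after rescaling (0.65, adjusted p = 0.0648) and when any Saline library, OVA replicate 2 or Herb replicate 1, 3 or 4 was left out (0.47 to 0.54, adjusted p = 0.0625 to 0.119). The first lost it under quantile normalization (0.81, adjusted p = 0.066) and without Saline replicate 2 or 3 or Herb replicate 3 (0.60 to 0.76, adjusted p = 0.05 to 0.0696). On the log2(FPKM + 1) scale, changes of such low genes are understated.

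Type V collagen, which starts the assembly of type I fibrils, was low in the rows with a symbol. Col5a2 had 0.993, 0.695 and 0.563 FPKM in Saline, 11.0, 0.528 and 0.404 in OVA and 0.782, 1.01, 0.696 and 0.761 in Herb. OVA replicate 1 alone stood far above all other libraries, and the gene was not called in any comparison. Its gene lies 24624 bases from Col3a1, its neighbour on chromosome 1. Col5a3 stayed between 0.164 and 1.60 FPKM and Col11a2 between 0.079 and 1.14 FPKM, both with their highest library in OVA, and neither reached the mean needed for a test.

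Col1a2 (chromosome 6, 4505618 to 4541543), the partner chain of Col1a1 in type I collagen, had a symbol row that differed from its locus in the calls, both as deposited and after rescaling. The row had 22.0, 12.1 and 0.546 FPKM in Saline, was listed at 0 in OVA replicates 1, 2 and 3, and had 35.8, 19.9, 24.2 and 44.5 FPKM in Herb. The test called it lower in OVA vs. Saline (adjusted p = 0.0119) and higher in Herb vs. OVA (adjusted p = 0.00716), and no fold is given against a group listed at 0. Symbol-less models numbered into the same locus held 24.7, 24.8 and 17.7 FPKM in the OVA libraries. With these added, the locus had 26.9, 14.1 and 11.2 FPKM in Saline, 24.7, 24.8 and 17.7 in OVA and 40.8, 36.0, 30.5 and 57.5 in Herb. OVA then lay within the Saline range and all Herb libraries above both groups. On this locus sum the log2 fold change of OVA vs. Saline was 0.42 (SE 0.32, adjusted p = 0.272), that of Herb vs. OVA 0.83 (adjusted p = 0.0446) and that of Herb vs. Saline 1.25 (adjusted p = 0.0173). After rescaling the 3 values were 1.45 (adjusted p = 0.00627), 0.19 (adjusted p = 0.705) and 1.64 (adjusted p = 0.0115). The symbol row was called in the opposite direction after rescaling, lower in OVA vs. Saline (adjusted p = 0.0266 in limma). It was also called higher in Herb vs. OVA (adjusted p = 0.0251), where the locus was not called.

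The ratio of Col1a2 to Col1a1 gives a further view, since both chains enter the same helix. By the symbol row the ratio was 1.12, 1.56 and 0.0592 in Saline, 0 in each OVA library and 1.3 to 1.90 in Herb. By the locus it was 1.22 to 1.82 in Saline, 1.11 to 1.75 in OVA and 1.81 to 2.34 in Herb, so that OVA and Saline overlapped. The values of 0 of the symbol row in OVA thus stand beside models that hold 17.7 to 24.8 FPKM in the same libraries. The counts of calls above include the row.

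**Figure D3:**
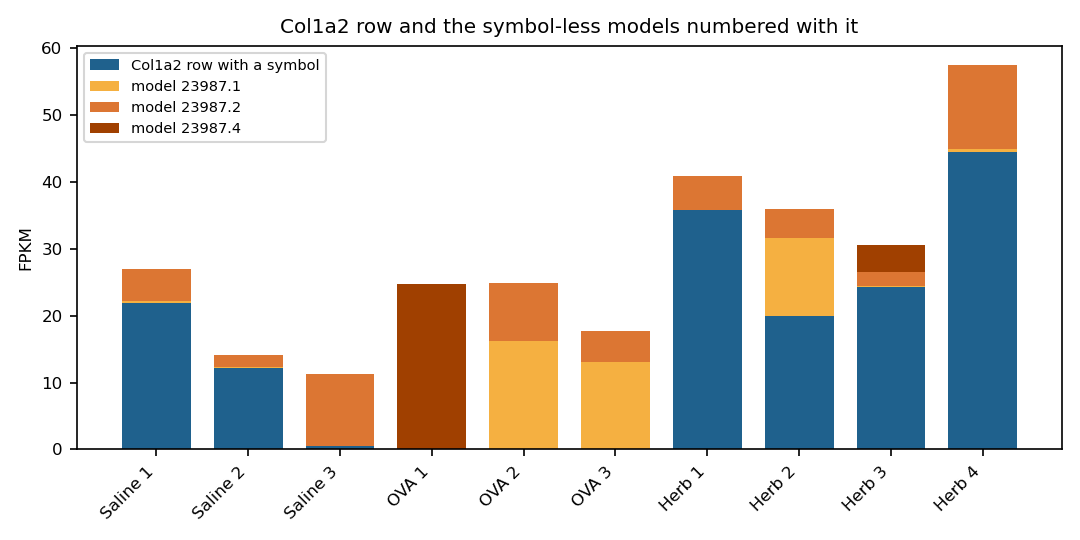
FPKM (vertical axis) of the Col1a2 row with a symbol and of the 3 symbol-less models that the numbering places in its locus, stacked for each library. The row is listed at 0 in OVA replicates 1, 2 and 3, where the models hold 24.7, 24.8 and 17.7 FPKM.

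The sequences before the starts of Col3a1 and Col1a2 are shown because these are the most abundant fibrillar chains with an entry in the promoter table. They are the 250 bases before the annotated start on the + strand in RefSeq on GRCm38.p6, at chr1:45311288-45311537 for Col3a1 and chr6:4505368-4505617 for Col1a2. Capitals mark exact matches, on either strand, to 3 common promoter motifs. The first is the CCAAT box, which was searched by the letters of its name. The second, known as the TATA box, was searched as TATAAA. The third, the GC box that the factor Sp1 is known to bind, was searched as GGGCGG. The table has an entry for 35 of the 44 collagen genes.
Col3a1: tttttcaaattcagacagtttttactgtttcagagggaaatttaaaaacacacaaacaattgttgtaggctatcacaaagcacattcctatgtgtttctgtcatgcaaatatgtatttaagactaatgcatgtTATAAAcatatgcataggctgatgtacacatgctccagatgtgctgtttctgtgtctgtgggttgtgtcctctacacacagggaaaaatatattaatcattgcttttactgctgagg
Col1a2: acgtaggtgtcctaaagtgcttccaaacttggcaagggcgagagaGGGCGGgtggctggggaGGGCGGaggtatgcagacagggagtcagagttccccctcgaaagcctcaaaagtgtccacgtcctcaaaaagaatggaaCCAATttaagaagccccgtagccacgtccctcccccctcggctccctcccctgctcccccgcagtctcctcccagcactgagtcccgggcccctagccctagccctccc
The Col3a1 stretch held 1 match, to the TATA box letters, and the Col1a2 stretch held 3, of which 2 were to the GC box letters and 1 to the CCAAT box letters. Among all 27025 genes of the promoter table, 34.5% held the CCAAT letters, 13.0% the TATA letters and 32.9% the GC box letters in the same window. Among the 35 collagens the shares were 34.3%, 14.3% and 60.0%. These matches are descriptions of the letters and not of sites that act.

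The basement membrane class had the largest sum of all classes in Saline and a lower one in OVA. Its summed FPKM was 296.4, 160.9 and 253.2 in Saline, 89.2, 94.0 and 46.3 in OVA and 202.7, 204.5, 108.6 and 120.8 in Herb. All OVA libraries were below all others, and Herb and Saline overlapped. With the models of the loci added, OVA (64.4 to 161.5) and Herb (152.9 to 260.4) overlapped, and Saline (223.7 to 336.3) stayed above OVA. The sum was mostly Col4a1, Col4a2 and Col4a3. After rescaling the sums overlapped between OVA (70.4 to 154.3) and Saline (111.2 to 203.1).

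Col4a1 (chromosome 8, 11198423 to 11312889) encodes the most widespread type IV chain and had 150.5, 106.1 and 134.5 FPKM in Saline, 43.9, 48.3 and 21.9 in OVA and 111.7, 114.5, 61.1 and 71.2 in Herb. The OVA libraries were the 3 lowest of all, and the Herb range reached from below to within that of Saline. The OVA mean was 0.292 times the Saline mean (log2 fold change -1.81, SE 0.35, adjusted p = 0.00176), and the Herb mean was 2.36 times the OVA mean (1.24, SE 0.33, adjusted p = 0.0162). Neither call held after rescaling to the 75th percentile, with -0.67 (adjusted p = 0.117) and 0.57 (adjusted p = 0.249), and under quantile normalization the first turned to 0.05 (adjusted p = 0.913). The fall of Col4a1 was thus called in the FPKM as deposited and not after rescaling. The rescaled estimate of -0.67 still lay below the rescaled median of all gene sums, 0.07.

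Col4a2 lies head to head with Col4a1, the annotated genes sharing 85 bases at their starts, and its chain joins Col4a1 chains in 1 helix. It had 96.6, 8.52 and 76.9 FPKM in Saline, 22.3, 30.8 and 16.2 in OVA and 58.1, 60.9, 28.9 and 33.1 in Herb. Saline replicate 2 stood apart from the other two Saline libraries, and the gene was not called in any comparison. The ratio of Col4a2 to Col4a1 was 0.0803 in Saline replicate 2 and 0.464 to 0.739 in the other libraries. The symbol-less model listed just before Col4a2 had 60.3 FPKM in that library and 3.53 to 14.0 elsewhere, a value given beside the gene since the numbering could not place this model in a locus.

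Col4a3 (chromosome 1, 82586921 to 82722059), a chain of the alveolar and glomerular basement membranes, showed the largest fall of the type IV chains. It had 37.0, 41 and 35.8 FPKM in Saline, 10.7, 8.41 and 1.90 in OVA and 13.5, 20.2, 11.7 and 10.6 in Herb. Every Saline library was above every other library, and Herb and OVA overlapped. The OVA mean was 0.185 times the Saline mean (log2 fold change -2.51, SE 0.46, adjusted p = 0.00136), and on the rescaled values it was -1.45 (adjusted p = 0.0423). With a common protein-coding sum or quantile normalization it was -1.09 and -1.07 and not called (adjusted p = 0.123 and 0.164). The Herb mean was 0.368 times the Saline mean (-1.42, SE 0.43, adjusted p = 0.0415), and this call ended when any Saline library or Herb replicate 1, 3 or 4 was left out (-1.31 to -1.46, adjusted p = 0.0754 to 0.115) and after rescaling (-0.96, adjusted p = 0.184). The ratio of Col4a3 to Col4a1 was 0.246 to 0.387 in Saline, 0.0869 to 0.245 in OVA and 0.121 to 0.191 in Herb.

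The other basement membrane chains were lower in abundance. Col4a4, the partner of Col4a3, had 1.19 to 13.9 FPKM over all libraries in its symbol row and 14.6 to 65.1 with the models numbered into its locus, and it was not called on either measure. Col18a1, whose fragment is known as endostatin, had 1.66 to 3.77 FPKM in Saline, 1.69 to 2.46 in OVA and 2.02 to 4.30 in Herb, and its gene sum was not called as deposited or after rescaling to the 75th percentile. Its row NM_001109991 was called by itself as deposited, though not after rescaling. That row had 3.77, 1.66 and 1.64 FPKM in Saline, 0.0073, 0 and 1.5 in OVA and 1.32 to 2.44 in Herb. The other row, NM_009929, was listed at 0 in Saline replicates 1 and 2 and had 2.45, 2.17 and 0.186 FPKM in OVA, so that OVA replicates 1 and 2 were low in one row and high in the other. Col15a1, found in vascular basement membranes, had 0.198 to 0.954 FPKM in Saline and 0.910 to 1.36 elsewhere, below the mean needed for a test.

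**Figure D4:**
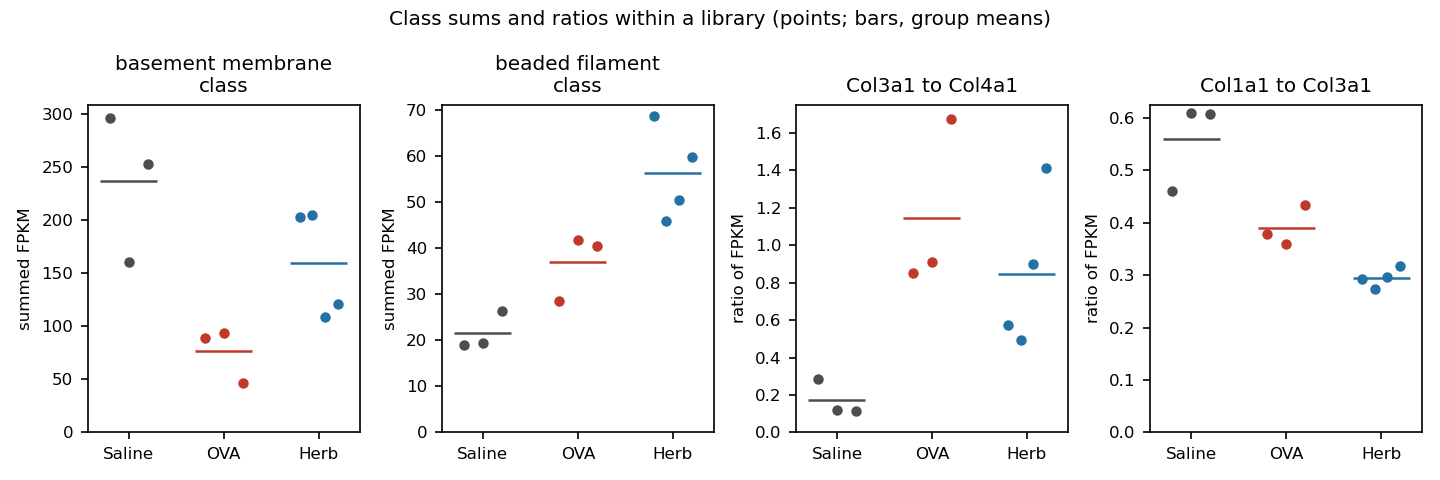
Summed FPKM of the basement membrane and beaded filament classes and the within-library ratios of Col3a1 to Col4a1 and of Col1a1 to Col3a1 (vertical axes, from 0), with a point for each library and a bar for the group mean. OVA is lowest in the first panel (46.3 to 94.0), Herb is highest in the second (46.0 to 68.8), Saline is lowest in the third (0.113 to 0.283) and Herb is lowest in the fourth (0.273 to 0.317).

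The sum of the beaded filament chains was highest in Herb as deposited. Their summed FPKM was 19.1, 19.5 and 26.4 in Saline, 28.6, 41.8 and 40.5 in OVA and 68.8, 46.0, 50.5 and 59.8 in Herb, so that the 3 groups did not overlap and were ordered Saline, OVA, Herb. With the models of the loci added, Saline (25.8 to 37.0) and OVA (36.9 to 51.7) overlapped, and Herb (61.5 to 73.9) lay above both. After rescaling the sums were 13.1 to 18.2, 49.5 to 61.6 and 39.4 to 62.5, with OVA and Herb overlapping. In Saline replicate 1 these sums include Col6a1 listed at 0. They leave out the unplaced model listed just before Col6a1, which had 26.7 FPKM in that library and 4.05 to 25.3 elsewhere. Whether the order of the groups holds with that model added was not tested. Col6a2 had 16.9, 6.10 and 9.12 FPKM in Saline, 15.5, 16.1 and 19.8 in OVA and 28.4, 21.8, 23.3 and 33.1 in Herb. The Herb libraries were all above the rest, and Saline replicate 1 lay within the OVA range. The Herb mean was 2.49 times the Saline mean (log2 fold change 1.33, SE 0.29, adjusted p = 0.0152), and the value was 1.74 after rescaling (adjusted p = 0.0137). Without Saline replicate 2 or 3 it was 1.02 and 1.27 (adjusted p = 0.0543 and 0.0518). In OVA vs. Saline it was 0.73 as deposited (adjusted p = 0.0696), 1.09 without Saline replicate 1 (adjusted p = 0.00581) and 1.80 after rescaling (adjusted p = 0.00278).

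Col6a1, which lies 85161 bases from Col6a2 on chromosome 10 and is its partner in the type VI helix, was listed at 0 in Saline replicate 1, had 12.3 and 11.4 FPKM in the other two Saline libraries, 11.9, 19.9 and 14.7 in OVA and 27.4, 22.3, 24.4 and 17.6 in Herb. It was not called as deposited, and after rescaling it was called higher in OVA vs. Saline (2.47, adjusted p = 0.0259) and in Herb vs. Saline (2.37, adjusted p = 0.0489). Both rescaled values include the 0 of Saline replicate 1. Without that library the Herb vs. Saline value as deposited was 0.88 (adjusted p = 0.0476), against 2.11 with it (adjusted p = 0.0763 in limma). The symbol-less model listed just before Col6a1 had 26.7 FPKM in Saline replicate 1 and 4.05 and 6.65 in the other two Saline libraries, and the numbering could not place it. The third chain, Col6a3, ran from 0.378 to 12 FPKM with all groups overlapping, and from 3.98 to 15.3 with the models of its locus, and it was not called as deposited on either measure. Its 2 rows had opposite signs in OVA vs. Saline, 0.52 and -0.29, neither of them called (adjusted p = 0.567 and 0.834).

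Of the fibril-associated chains, Col12a1 (chromosome 9, 79598987 to 79721141), which coats type I fibrils, fell in both groups given ovalbumin. It had 5.28, 4.14 and 4.34 FPKM in Saline, 0.466, 0.665 and 0.150 in OVA and 1.14, 1.54, 0.542 and 0.537 in Herb. All Saline libraries were above all others, and Herb and OVA overlapped. The OVA mean was 0.0931 times the Saline mean (log2 fold change -1.98, SE 0.23, adjusted p = 0.000164) and the Herb mean 0.204 times (-1.56, SE 0.21, adjusted p = 0.0072). Both calls held under each rescaling, with values after the 75th percentile of -1.35 (adjusted p = 0.00218) and -1.17 (adjusted p = 0.0145). Col14a1, the related chain of mature fibrils, had 5.04, 3.28 and 2.75 FPKM in Saline, 1.81, 2.91 and 1.24 in OVA and 5.01, 4.90, 2.74 and 3.87 in Herb, with the groups overlapping. It was called higher in Herb vs. OVA (0.79, SE 0.25, adjusted p = 0.0301), a call that ended after rescaling (0.31, adjusted p = 0.389) and without OVA replicate 1 or 3 or Herb replicate 1, 2 or 4 (0.60 to 0.81, adjusted p = 0.051 to 0.101).

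The 3 short-chain network collagens were near 1 to 2 FPKM and differed among themselves. Col8a1, a chain of vessel walls and endothelium, had 1.96, 1.76 and 2.20 FPKM in Saline, 0.371, 0.679 and 0.311 in OVA and 1.01, 1.54, 1.19 and 1.46 in Herb. The 3 groups did not overlap, with OVA lowest and Herb between. The OVA mean was 0.230 times the Saline mean (log2 fold change -1.04, SE 0.15, adjusted p = 0.000413), and the Herb mean was 2.87 times the OVA mean (0.67, SE 0.14, adjusted p = 0.00859). Rescaled, the first was -0.49 (adjusted p = 0.028) and the second 0.42 (adjusted p = 0.11), and with a common protein-coding sum the first was -0.30 and not called (adjusted p = 0.154). Its sister chain Col8a2 stayed within 1.61 to 2.28 FPKM in all libraries, was not called as deposited and was called higher in OVA vs. Saline after rescaling (0.80, adjusted p = 0.00328). Col10a1, known from hypertrophic cartilage, had 0.983 to 1.52 FPKM in Saline, 0.483 to 1.07 in OVA and 1.2 to 1.64 in Herb, and it was not called in any comparison on either scale.

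Col13a1, a transmembrane chain of cell-matrix contacts, had 3.12, 0.668 and 2.49 FPKM in Saline, 6.30, 4.09 and 1.86 in OVA and 4.72, 6.33, 4.51 and 3.19 in Herb. OVA overlapped both other groups. It was called in OVA vs. Saline only after rescaling (log2 fold change 1.54, adjusted p = 0.0177). The models of its locus raise Saline to 4.97 to 11.1 FPKM. With them the value was -0.13 as deposited (adjusted p = 0.754) and 0.82 after rescaling (adjusted p = 0.0715 in limma). Of the rest of this class, Col17a1 of hemidesmosomes ran from 0.202 to 0.740 FPKM, and Col25a1, Col26a1 and Col28a1 did not exceed 0.385 FPKM.

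Taking single rows in place of gene sums, 21 collagen rows had a mean of at least 1 FPKM. In OVA vs. Saline 8 of these were called in either direction (44.2% of all rows), in Herb vs. OVA 5 (32.4%) and in Herb vs. Saline 4 (8.09%). The calls were those of the gene sums except for 2 differences. NM_001109991 of Col18a1 was called lower in OVA vs. Saline (log2 fold change -1.25, adjusted p = 0.0249) and higher in Herb vs. OVA (1.09, adjusted p = 0.0432), and Col4a3 and Col7a1 were not called in Herb vs. Saline. Both calls of the Col18a1 row ended after rescaling, with -0.88 (adjusted p = 0.17) and 0.92 (adjusted p = 0.215 in limma). Of the 54 rows, 6 are listed at 0 in all libraries, and 9 genes had more than 1 row.

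A ratio of 2 genes within a library is not changed by a single scaling factor per library, though it is by quantile normalization. The ratio of Col3a1 to Col4a1 was 0.283, 0.12 and 0.113 in Saline, 0.85, 0.908 and 1.67 in OVA and 0.574, 0.492, 0.901 and 1.41 in Herb. Every OVA and Herb library had more Col3a1 for its Col4a1 than any Saline library, and OVA and Herb overlapped. All collagens together made up 0.155% to 0.317% of the summed FPKM of protein-coding rows in Saline, 0.292% to 0.51% in OVA and 0.368% to 0.455% in Herb, so that only Saline and Herb did not overlap.

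The counts for genes that make, process and bind collagen, and for cell markers, stand beside the shares of all gene sums. In OVA vs. Saline these were 57.9% lower and 3.28% higher as deposited and 17.2% lower and 24.1% higher after rescaling, and in Herb vs. OVA 44.0% were higher as deposited. Fold changes of the genes named from here on are as deposited, where the median of all gene sums in OVA vs. Saline was -0.75. Of 19 tested genes for folding and modifying procollagen, 12 were called lower and 0 higher in OVA vs. Saline, near the share of all gene sums called lower. In Herb vs. OVA 13 of the 19 were called higher, a larger share than the 44.0% of all gene sums. P4hb, a subunit of prolyl 4-hydroxylase, had 59.2 to 72.6 FPKM in Saline, 21.8 to 43.9 in OVA and 59.8 to 66.5 in Herb (OVA vs. Saline -0.95, SE 0.24, adjusted p = 0.00738), and Ppib, a prolyl isomerase of the endoplasmic reticulum, had means of 46.7, 14.1 and 25.7 (-1.71, SE 0.26, adjusted p = 0.000486). After rescaling, 2 of the 19 were called higher and 3 lower in OVA vs. Saline, with a median of -0.05, and 0 were called in Herb vs. OVA.

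Among 7 tested genes for trimming and cross-linking, 5 were called lower and 1 higher in OVA vs. Saline. Lox, the lysyl oxidase that starts cross-linking, had 19.9 to 61.8 FPKM in Saline, 1.73 to 6.54 in OVA and 10.3 to 30.1 in Herb (-3.23, SE 0.54, adjusted p = 0.000809). Pcolce2, an enhancer of procollagen C-proteinase, had means of 39.6, 5.78 and 17.7 FPKM (-2.72, SE 0.47, adjusted p = 0.000917). The gene called higher was Bmp1, that proteinase itself, with means of 0.575, 3.25 and 3.68 FPKM in Saline, OVA and Herb (1.36, adjusted p = 0.0269). Bmp1 is outside the naming rule and was chosen after its values were seen. Rescaled, 2 of the 7 were called higher and 2 lower.

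Of 6 fibril-binding proteoglycans tested, 4 were called lower and 0 higher in OVA vs. Saline, with a median log2 fold change of -2.33, and after rescaling 4 were lower and 1 higher, with a median of -1.37. Ogn (osteoglycin, a regulator of fibril width) had 127.0 to 188.2 FPKM in Saline, 2.94 to 13.9 in OVA and 18.1 to 55.0 in Herb (-4.27, SE 0.54, adjusted p = 0.000209). Bgn (biglycan) ran from 12.4 to 140.2 FPKM in Saline alone and was not called (-0.84, adjusted p = 0.431). Of 12 tested laminins, nidogens and other basement membrane partners, 8 were lower and 0 higher in OVA vs. Saline, and 5 lower and 2 higher after rescaling. The laminin chain Lamc1 had means of 27.6, 6.49 and 14.6 FPKM (-1.97, SE 0.28, adjusted p = 0.000365), and Sparc, a type IV collagen-binding glycoprotein, had 53.2, 20.8 and 60.5 FPKM (-1.37, SE 0.49, adjusted p = 0.0347). Of 6 tested collagen receptors, 3 were lower and 0 higher, and 1 lower and 1 higher after rescaling. The integrin subunit Itgb1 had means of 105.4, 15.8 and 42.5 FPKM (-2.72, SE 0.29, adjusted p = 0.000151), and the receptor kinase Ddr1 had 5.96, 3.79 and 4.87 FPKM (-0.55, SE 0.14, adjusted p = 0.00901). The fall of Ddr1 was smaller than that of the median of all gene sums, -0.75.

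Markers of the cells that make collagen moved between the groups as well. Of 9 tested fibroblast markers, 7 were called lower in OVA vs. Saline as deposited and 4 after rescaling, and their summed FPKM was 628.8 to 711.3 in Saline, 33.3 to 123.3 in OVA and 120.3 to 386.1 in Herb. Pdgfra, the receptor that marks many lung fibroblasts, had means of 77.0, 16.1 and 39.9 FPKM (-2.29, SE 0.38, adjusted p = 0.00079), and Inmt had 487.1, 40.1 and 127.3 FPKM (-4.01, SE 0.75, adjusted p = 0.00144). Of 6 smooth muscle markers, 0 were called in either direction as deposited and 4 were called higher after rescaling, and the sum was 29.1 to 38.4 in Saline, 31.0 to 45.2 in OVA and 36.4 to 68.5 in Herb. Acta2 had means of 11.5, 13.8 and 19.3 FPKM and Tagln 9.27, 6.72 and 12 FPKM. As deposited, the smooth muscle sums overlapped between the groups. After rescaling they were 20.0 to 26.3 in Saline, 47.2 to 62.8 in OVA and 40.1 to 66.5 in Herb, with Saline below both. The fibroblast sums of Saline lay above all others on both scales.

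Of 7 endothelial markers, 6 were lower in OVA vs. Saline as deposited and 4 after rescaling, with sums of 351.9 to 437.5 in Saline, 68.1 to 108.3 in OVA and 150.8 to 284.0 in Herb. Cdh5, the cadherin of endothelial junctions, had means of 128.9, 13.3 and 43.1 FPKM (-3.25, SE 0.40, adjusted p = 0.000193), and Pecam1 had 90.6, 30.1 and 59.4 FPKM (-1.49, SE 0.38, adjusted p = 0.00754). Of 5 tested alveolar type 1 markers, 5 were lower as deposited and 4 after rescaling; Ager had means of 368.8, 66.5 and 159.5 FPKM (-2.66, SE 0.51, adjusted p = 0.0016) and Hopx 176.4, 20.1 and 53.1 FPKM (-3.13, SE 0.36, adjusted p = 0.000164). Of 5 alveolar type 2 markers, 4 were lower on both scales, Sftpc with means of 2870, 310.3 and 924.9 FPKM and Sftpa1 with 629.6, 141.7 and 332.5 FPKM. The leukocyte sum was 13.2 to 14.5 FPKM in Saline, 5.19 to 9.01 in OVA and 11.5 to 17.4 in Herb as deposited. After rescaling it was 9.09 to 9.93, 8.98 to 13.7 and 12.6 to 17.1, so that Saline and OVA overlapped. In OVA vs. Saline 2 of 5 leukocyte markers were lower as deposited and 1 after rescaling, where their median log2 fold change was 0.47. The mesothelial sum was 5.02 to 11.2, 0.271 to 3.86 and 1.32 to 10.1, with 1 of 2 lower on both scales. Of 7 cartilage genes in the table only Chad reached a mean of 1 FPKM (3.26, 4.21 and 6.11 FPKM) and was not called. The part of these cell markers in the changes of the collagen chains was not tested.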

How the data were processed

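Lung RNA of 10 libraries was sequenced in read pairs. The labels name Trizol and an Illumina TruSeq RNA kit, the methods a NucleoSpin kit and TruSeq Stranded mRNA. The authors trimmed the reads (cutadapt 1.10), aligned them to mm10 with HISAT2, assembled transcripts with StringTie 1.3.3b and deposited 1 table of FPKM from ballgown, with a row per RefSeq transcript or assembled model. The authors' edgeR tests were not used. Since FPKM are no counts, limma 3.58.1 (R 4.3.3, lmFit and eBayes with a trend) was run on log2(FPKM + 1) over all 10 libraries with 3 group means, on gene sums and, separately, single rows whose mean reached 1 FPKM, with Benjamini-Hochberg adjustment over all features tested. Differences of low genes are compressed by the added 1. The test was tried on simulated data first. The study gives the groups as 3, 3 and 4 mice, and the labels name no animal for a library.

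Gene positions and promoters are RefSeq on GRCm38.p6, the assembly of mm10. Depth was estimated from the smallest steps of FPKM times length, and floors cover counting error only. Members, classes and lists were chosen with earlier results of these data known. Values in each library were given for the 3 most abundant tested genes of a class, for genes called in a comparison with Herb, for the up to 5 largest changes called in each direction in OVA vs. Saline, and for genes called after rescaling to the 75th percentile. Col6a3, Col8a2 and Col10a1 met this rule and were given as ranges only. Of the other lists the 2 most abundant genes were named, except that Chad alone was named for cartilage and no gene for leukocytes or mesothelium. Alternatives were other scalings (75th percentile, common protein-coding sum, quantile), a pseudocount of 0.1, no filter, only the groups compared, eBayes without a trend, a replicate block, the highest row per gene and leaving out each library. The locus sum, with and without rescaling, was added after seeing the data: models of a locus are numbered in sequence and a missing number is a RefSeq row, which assigned 6791 models to 2507 symbols.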

Additional observations from a re-analysis of the deposited data

Results flagged for a closer look

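Col4a4 stood at 13.9 FPKM in Herb replicate 1, far from the other three Herb libraries by Dixon's test, a rule by which chance flags about 1 in 20 groups. Some symbol-less models in or next to collagen genes lay above the highest Saline library in every library of a group. They enter none of the comparisons of gene sums. The rule looked only for models above Saline, so those below it were not flagged. An example is the model listed just after Col4a3, with 2.54 to 3.13 FPKM in Saline and 0.212 to 0.833 in OVA. The share of all models that would pass the rule was not computed. Of those flagged, the model in the Col18a1 locus had at least 1.26 FPKM in Herb. The model listed just before Col1a1 had at least 3.27 FPKM in OVA and 7.24 FPKM in Herb, against at most 1.06 in Saline. The model listed between Col3a1 and Col5a2 had at least 13.0 FPKM in Herb, against at most 11.4 in Saline. The model before Col6a2 had at least 1.35 FPKM in Herb, and the one after Col8a2 at least 1.29 FPKM in OVA. Whether these models belong to the collagen genes was not tested.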

How the results depend on the processing

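Of 20 collagen genes, the 7 called in OVA vs. Saline (6853 of all 11205 gene sums) became 12 with 75th percentile scaling (4617 of all). They became 12 with a common protein-coding sum (5226 of all) and 11 with quantile normalization (4004 of all). With the locus sum and 75th percentile scaling they became 15 of 23 (5526 of all 11780). The 4 in Herb vs. OVA (4982 of all) became 1 with 75th percentile scaling (90 of all) and 1 with quantile normalization (157 of all). They became 0 of 23 with the locus sum and 75th percentile scaling (81 of all 11780). In that setting 4 collagens had an unadjusted p under 0.05 in limma. The 6 in Herb vs. Saline (2921 of all) became 10 of 23 with the last of these (2376 of all 11780). Of 21 collagen rows, the 5 in Herb vs. OVA (9786 of all 30194 rows) became 1 with each of the 3 scalings (162 to 266 of all). They became 3 of 48 without a filter (7619 of all 57556) and 3 with only the groups compared (6795 of all 30194). The 4 in Herb vs. Saline (2443 of all) became 7 with the coding sum (4632 of all) and 2 of 48 without a filter (1900 of all 57556). With libraries left out in turn, the collagen genes called ranged from 7 to 10, from 3 to 6 and from 1 to 7 in the 3 comparisons. All gene sums called ranged from 6143 to 6862, from 3225 to 5069 and from 897 to 3224 of 11205. In Herb vs. Saline, 1 collagen was called without Saline replicate 2 or 3 (897 and 1354 of all) and 3 without Herb replicate 3 (1537 of all). The collagen rows called ranged from 7 to 8, from 0 to 6 and from 1 to 5. All rows called ranged from 10675 to 13463, from 216 to 9300 and from 207 to 3014 of 30194. The 0 was in Herb vs. OVA without OVA replicate 1 (limma, 5 at an unadjusted p under 0.05), where 216 of all rows were called.

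Same-numbered replicates shared only a number (correlations of deviations from -0.009 to 0.095). A replicate block called 8, 4 and 2 collagen genes in the 3 comparisons, beside 6603, 4040 and 1342 of all 11205 gene sums. It called 9, 3 and 1 collagen rows, beside 11962, 5794 and 235 of all 30194 rows.

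Signs turned in OVA vs. Saline for Col1a2 (locus sum 0.42, with 75th percentile scaling 1.45), Col13a1 (locus sum -0.13), Col4a1 (quantile 0.053), Col14a1 (75th percentile 0.17, coding sum 0.45, locus sum with 75th percentile 0.11) and Col18a1 (75th percentile 0.62, coding sum 0.89, quantile 0.43, locus sum 0.006, locus sum with 75th percentile 0.82, the second and the last of these called, and -0.39 to 0.034 with libraries left out). With libraries left out, Col6a3 ranged from -0.13 to 1.01 and Col8a2 from -0.054 to 0.10. In Herb vs. OVA the coding sum gave -0.0021 for Col10a1, and Col18a1 had -0.19, -0.34 and -0.17 with 75th percentile, coding sum and quantile. In Herb vs. Saline, Col18a1 had -0.16 by its highest row and -0.08 to 0.34 with libraries left out. Of 28 fold changes not given here, 21 changed sign under some alternative, 1 of them with a call (Col10a1, OVA vs. Saline, 0.44 with the coding sum). The cause was not tested. The depth limits genes near the floor of 3 fragments.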
